A study of Homo sapiens with 6 samples.

Results

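A set of 10 known p53 target genes that act in metabolism was followed in A2780 cells, an ovarian cancer line, after treatment with TH588 (TH-588 in the labels), a compound made as an inhibitor of the nucleotide hydrolase MTH1. The genes were *TP53I3*, *TIGAR*, *GLS2*, *SCO2*, *FDXR*, *ALDH4A1*, *CPT1C*, *PANK1*, *FUCA1* and *SAT1*, out of 58336 genes in the count table, and each was found by its Ensembl identifier. RNA was sequenced from 3 libraries of cells given DMSO, the vehicle, and from 3 libraries of cells given 6 µM TH588 for 48 h, with the replicates lettered A, B and C in each group. All libraries came from the same cell line in the same medium, which contained insulin.

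The tumor suppressor p53 is a transcription factor that is stabilized after DNA damage and other stresses. Beside its well-known targets in cell cycle arrest and cell death, it switches on genes that shape how cells handle NADPH, iron-sulfur clusters, glutamine, fatty acids and polyamines. It binds DNA as a tetramer at a response element made of a pair of similar half-sites, and *TP53I3* is a known exception in which p53 acts through a run of short repeats.

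The consensus p53 response element, 20 bases in 2 half-sites of 10 bases with a spacer of 0 to 10 bases, was searched in a window of 2000 bases on each side of every RefSeq start site (GRCh38.p14). The consensus is its own reverse complement, so a match covers both strands. Start sites were found for 9 of the 10 genes, and *SCO2* had no entry. A match without a mismatch stood in the window of 1 of these 9 genes, against 0.4% of 27305 genes scanned. At most 1 mismatch was found in 2 of the 9, against 5.4% of all genes, and at most 2 mismatches in 5 of the 9, against 30.6%. The sites with the fewest mismatches in *TIGAR*, *PANK1*, *GLS2* and *FDXR* are shown because they differ in how closely they follow the consensus. Capitals mark the C and G at the core of each half-site.
TIGAR: agaCatGtccacagaCttGtct
PANK1: gggCatGctcagtggcggggaCcaGtct
GLS2: aggCttGctggggCatGcgc
FDXR: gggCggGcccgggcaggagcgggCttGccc

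The *TIGAR* site had 0 mismatches and lay in an intron at chr12:4321615-4321636 on the plus strand, 412 bases downstream of a RefSeq start site. The *PANK1* site had 1 mismatch and overlapped an annotated 5' UTR at chr10:89645238-89645265 on the minus strand. Its center was about -9 bases from a RefSeq start site, where a minus sign means upstream. The *GLS2* site, with 2 mismatches and no spacer, overlapped a coding exon at chr12:56488113-56488132 on the minus strand. The *FDXR* site, also with 2 mismatches, overlapped an annotated 5' UTR at chr17:74872996-74873025 on the minus strand. Its center was about -16 bases from a RefSeq start site. *GLS2* and *PANK1* each had another site with 2 mismatches, and *ALDH4A1* had 2 intronic sites with 2 mismatches. The fewest mismatches were 3 in the windows of *TP53I3*, *CPT1C*, *FUCA1* and *SAT1*, which says only that closer letters were not in these windows. These matches are descriptions of the sequence and were not tested for binding.

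The 5' UTR of *TP53I3* held 15 tandem copies of the pentamer TGNCC at chr2:24084343-24084417 on the minus strand. Among the 27305 genes scanned on both strands, 1 gene had a run this long within 2000 bases of a start site, and that gene was *TP53I3* itself. The longest run in any of the other members was 2 copies. The first 30 bases, chr2:24084388-24084417, are shown with the fixed letters of each pentamer in capitals.
TP53I3: TGcCCTGtCCTGtCCTGcCCTGcCCTGtCC

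After TH588, 6 of the 10 genes were higher and 0 lower, 3 were not called and 1 could not be tested. *TP53I3*, *FDXR* and *SAT1* rose most, by 6.93-fold, 5.63-fold and 4.49-fold, and *FUCA1*, *TIGAR* and *CPT1C* rose by 2.22-fold, 2.08-fold and 1.91-fold. *ALDH4A1*, *GLS2* and *PANK1* did not pass the threshold, and *SCO2* was almost without counts. Differences were tested with edgeR's quasi-likelihood test at an adjusted p under 0.05 over all 15844 genes with enough counts, of which 9 were members. By edgeR at an unadjusted p under 0.05, by DESeq2 and by limma-voom the count was again 6 higher and 0 lower. Of all genes tested, 24.2% were called higher and 25.3% lower. All 3 TH588 libraries lay above all 3 DMSO libraries in 8 of the 9 members, against 28.7% of all genes tested, and below them in 0, against 29.0%. The median log2 fold change was 1.06 over the 9 members and 0.02 over all genes tested. With library size as the sole scaling, 60.4% of the called genes were higher, against 48.9% here, and 6 members were again higher. In bulk RNA such as this, fewer cells of a type and less RNA per cell cannot be told apart.

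**Figure D1:**
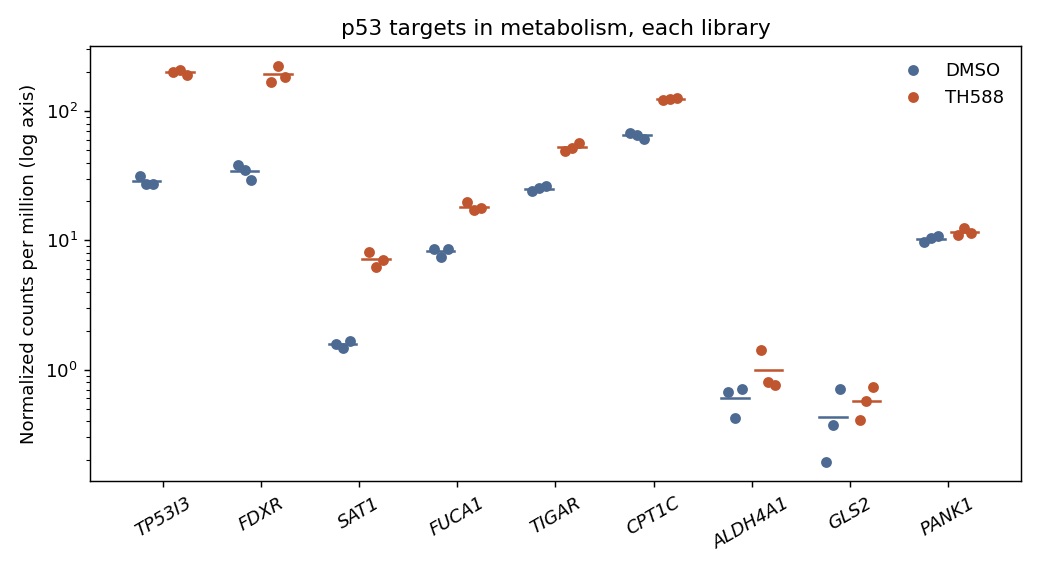
Normalized CPM (counts scaled to library size, log axis) of the 9 members that passed the low-count filter, ordered by fold change, with 1 point per library and a line at the mean of the 3 libraries of each group. The TH588 points lie above the DMSO points for every member plotted except *GLS2*, and the gap narrows from *TP53I3* to *PANK1*.

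Total counts were between 83144642 and 98176722 in the DMSO libraries, and TH588 replicate A was the shallowest library with 28537837 counts, against 77634048 and 99074175 in the other TH588 libraries. The small nucleolar RNA *SNORD3A* took 21.9% of the counts of TH588 replicate A and between 7.68% and 13.0% in the others. Of the p53 axis, *CDKN1A*, *MDM2* and *PPM1D*, which encode p21, the p53 ubiquitin ligase and a phosphatase that dampens p53, were called higher by edgeR at 4.71, 2.00 and 1.15 on the log2 scale. *MDM4*, a relative of *MDM2*, was called higher at 0.23, a call lost without DMSO replicate A or B (adjusted p from 0.0686 to 0.106 by edgeR). Of 10 markers of A2780 and epithelial cells, 7 did not pass the filter, among them *PAX8* with at most 2 counts in a library, while vimentin (*VIM*) was abundant. *EPCAM*, an epithelial adhesion molecule, rose from 0.644 ± 0.212 to 4.74 ± 0.350 CPM (SD, n = 3 each). *KRT18*, a keratin, rose from 3.56 ± 0.373 to 6.54 ± 0.435 CPM (SD, n = 3 each), with 16.3% of its exon bases shared with other genes. Summed without *VIM*, these markers took 3.82 to 4.60 CPM in the DMSO libraries and 10.9 to 12.2 CPM in the TH588 libraries. Of 8 markers of blood, endothelial and stromal cells, 5 did not pass the filter and *CD3E* was at 0 in all libraries. Of the 3 tested, 1 was called higher and 0 lower, beside 24.2% and 25.3% of all genes tested. In 1 uncalled marker all TH588 libraries lay below all DMSO libraries. The sum of the 8 markers, which hides such opposite moves, was 11.5 to 13.5 CPM with DMSO and 13.6 to 14.8 CPM with TH588. The part of these markers in the results was not tested.

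Among the genes that handle NADPH and electrons, *TP53I3* (ENSG00000115129, chromosome 2 from 24077433 to 24085861 on GRCh38), which encodes an NADPH-dependent quinone oxidoreductase, showed the largest rise. Taking replicates in the order A, B, C here and below, its level was 31.4, 27.4 and 27.4 CPM with DMSO, compared to 201, 207 and 189.5 CPM with TH588. The libraries of each group were close together and the groups were far apart. The means were 28.7 ± 2.31 and 199.0 ± 8.68 CPM (SD, n = 3 each), which differ by 2.79 on the log2 scale (SE 0.09, edgeR adjusted p = 1.98e-09). Of all genes tested, 99.0% lay below it in log2 fold change.

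*FDXR* (ENSG00000161513, chromosome 17 from 74862497 to 74873031) encodes ferredoxin reductase, which passes electrons from NADPH to the mitochondrial ferredoxins used in steroid and iron-sulfur cluster synthesis. The DMSO libraries had 38.5, 34.9 and 29.1 CPM, compared to 168, 224 and 185 CPM in those given TH588. TH588 replicate B was the highest and DMSO replicate C the lowest. Its log2 fold change, 2.49 (SE 0.13, edgeR adjusted p = 5.00e-08), lay within 2 standard errors of that of *TP53I3* (difference 0.30, standard error of the difference 0.16).

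*TIGAR* (ENSG00000078237, chromosome 12 from 4307763 to 4354593) encodes a fructose bisphosphatase that slows glycolysis and favors the pentose phosphate pathway, a source of NADPH. It had 23.9, 25.5 and 26.2 CPM in the DMSO libraries and 48.9, 51.7 and 56.8 CPM in the TH588 libraries. The groups did not overlap, and the lowest TH588 library was replicate A. The rise came to 1.06 on the log2 scale (SE 0.09, edgeR adjusted p = 1.26e-06). Its intron holds the site with 0 mismatches printed above.

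*SCO2* (ENSG00000284194, chromosome 22 from 50523568 to 50526439) encodes a copper chaperone needed to assemble cytochrome c oxidase, and it could not be measured in these files. Its entry held 0 counts in all 3 DMSO libraries and in TH588 replicate A, and 2 counts in each of TH588 replicates B and C. The limit that a 0 leaves, taken as 3 counts, was 0.112 CPM in TH588 replicate A and 0.0276 to 0.0365 CPM elsewhere, for counting error alone, so no fold change is given. Exons of other entries covered 100.0% of its exon bases. Of these bases, 71.7% were shared with ENSG00000130489, 41.7% with ENSG00000272821 and 28.3% with *TYMP*. ENSG00000130489 starts at the same base and had no symbol in the reference used here, so which gene it stands for was not settled. It had 26, 25 and 19 counts with DMSO, compared to 3, 15 and 12 with TH588. These counts are not scaled to depth, and TH588 replicate A had 28537837 counts in all, against 77634048 to 99074175 in the other libraries. How reads on shared exons were counted is not given in the sources used here, so the counts of this locus are uncertain.

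Of the genes for glutamine and proline, neither passed the threshold. *GLS2* (ENSG00000135423, chromosome 12 from 56470944 to 56488414), a mitochondrial glutaminase that turns glutamine into glutamate, had 0.195, 0.376 and 0.715 CPM with DMSO, compared to 0.411, 0.570 and 0.731 CPM with TH588. These values rest on 11 to 67 counts a library, and the groups overlapped. At 0.44 the log2 fold change was no larger than its SE of 0.45 (edgeR adjusted p = 0.439), and it ranged from 0.13 without DMSO replicate A to 1.06 without DMSO replicate C without passing the threshold. Exons of *SPRYD4* on the other strand covered 77.1% of the exon bases of *GLS2*. The libraries were made with a kit that does not mark strand, so reads there cannot be told apart.

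*ALDH4A1* (ENSG00000159423, chromosome 1 from 18871430 to 18902781) encodes a mitochondrial dehydrogenase that completes the breakdown of proline to glutamate. Its level was 0.669, 0.424 and 0.715 CPM in the DMSO libraries and 1.42, 0.809 and 0.755 CPM in the TH588 libraries, on 35 to 88 counts. TH588 replicate A was the highest, and the TH588 libraries lay above the DMSO libraries by a narrow margin. A log2 fold change of 0.66 (SE 0.33) did not pass the threshold (edgeR adjusted p = 0.124). It ranged from 0.38 without TH588 replicate A to 0.84 with each library left out in turn, and did not pass in any of these. Another entry, ENSG00000255275, covered 41.1% of its exon bases.

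Of the genes for lipids and coenzyme A, *CPT1C* rose and *PANK1* was not called. *CPT1C* (ENSG00000169169, chromosome 19 from 49690898 to 49713731) encodes the carnitine palmitoyltransferase best known from neurons, where it sits in the endoplasmic reticulum. It had 68.0, 65.5 and 60.9 CPM with DMSO, compared to 122, 124 and 126 CPM with TH588. The TH588 libraries differed little from each other, and none came near the DMSO libraries. In log2 terms this was a rise of 0.94 (SE 0.08, edgeR adjusted p = 1.25e-06).

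*PANK1* (ENSG00000152782, chromosome 10 from 89579497 to 89645572) encodes a pantothenate kinase, the enzyme of the entry step of coenzyme A synthesis. Its level was 9.64, 10.4 and 10.9 CPM with DMSO and 11.1, 12.4 and 11.4 CPM with TH588. The groups did not overlap, but the margin between the highest DMSO and the lowest TH588 library was small. A log2 fold change of 0.17 (SE 0.11, edgeR adjusted p = 0.218) was obtained from 297 to 1348 counts a library.

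The remaining members belong to the lysosome and to polyamine breakdown, and both rose. *FUCA1* (ENSG00000179163, chromosome 1 from 23845077 to 23868294) encodes the lysosomal enzyme that removes fucose from glycans. It had 8.64, 7.48 and 8.52 CPM in the DMSO libraries and 19.8, 17.2 and 17.8 CPM in the TH588 libraries. Each TH588 library stood well above each DMSO library. The increase was 1.15 on the log2 scale (SE 0.11, edgeR adjusted p = 5.01e-06).

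*SAT1* (ENSG00000130066, chromosome X from 23783173 to 23786226) encodes the acetyltransferase that marks spermidine and spermine for breakdown or export. The gene was scarce with DMSO, at 1.59, 1.47 and 1.67 CPM, and reached 8.14, 6.23 and 7.02 CPM with TH588. TH588 replicate A, the shallowest library, was the highest. *SAT1* rose by 2.17 on the log2 scale (SE 0.15, edgeR adjusted p = 4.22e-07), a value that lay between 2.08 and 2.26 with each library left out in turn.

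The 9 members were then ordered by log2 fold change. The step from *SAT1* to *FUCA1*, 1.02 with a standard error of 0.19, was the one gap between neighbors in this order that exceeded 2 standard errors of the difference. All other neighbors lay within 2 standard errors of each other, so these libraries do not settle which of such neighbors changed more.

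Levels were compared between genes as RPKM, the CPM divided by the deposited gene length in kilobases. With DMSO the order ran from *TP53I3* (12.4 ± 0.997 RPKM) through *CPT1C* (11.1 ± 0.619), *FDXR* (9.50 ± 1.31), *TIGAR* (6.27 ± 0.296), *FUCA1* (4.01 ± 0.313), *PANK1* (1.35 ± 0.0844), *SAT1* (0.631 ± 0.0404) and *ALDH4A1* (0.163 ± 0.0424) to *GLS2* (0.103 ± 0.0638 RPKM, SD, n = 3 each). The libraries of *CPT1C* and *FDXR*, and those of *ALDH4A1* and *GLS2*, overlapped with DMSO. Other entries share 77.1% of the exon bases of *GLS2* and 41.1% of those of *ALDH4A1*. The RPKM of these genes, and so their place in the order, depends on how shared reads were counted, which is not given. With TH588 *FDXR* (53.4 ± 8.10 RPKM) stood above *CPT1C* (21.2 ± 0.280 RPKM) and *SAT1* (2.86 ± 0.385 RPKM) above *PANK1* (1.52 ± 0.0893 RPKM, SD, n = 3 each). *TP53I3* remained the highest, at 86.1 ± 3.75 RPKM, and no neighbors in the order overlapped. The members thus spanned a wide range of levels in each group. Of the uncalled members, *ALDH4A1* and *GLS2* were the lowest in each group, while *PANK1* lay above the called *SAT1* with DMSO. Whether level bears on the calls was not tested.

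Each member except *GLS2* was then set beside a paralog or a functional partner to ask whether the pair moved together. The partner was a paralog or relative for *TP53I3* (*CRYZ*), *SCO2* (*SCO1*), *CPT1C* (*CPT1A*), *PANK1* (*PANK2*), *FUCA1* (*FUCA2*) and *SAT1* (*SAT2*). For *TIGAR* it was *PFKFB3*, which makes the fructose bisphosphate that *TIGAR* removes, for *FDXR* the electron acceptor *FDX1*, and for *ALDH4A1* the proline synthesis enzyme *ALDH18A1*. Of the partners, *SAT2* rose, *SCO1*, *ALDH18A1* and *PFKFB3* fell, and *CRYZ*, *FDX1*, *CPT1A* and *PANK2* did not pass the threshold. *SAT2* had a log2 fold change of 1.29 (standard error 0.09), *SCO1* of -0.52 (standard error 0.11) and *ALDH18A1* of -0.52 (standard error 0.08). The fall of *PFKFB3*, -0.27 (standard error 0.08), lost its call without DMSO replicate A or C or TH588 replicate C, with adjusted p-values of 0.0665 to 0.0764 from edgeR's test, and under library size alone. *FDX1*, at -0.25 (edgeR adjusted p = 0.104), passed without TH588 replicate A (-0.33, edgeR adjusted p = 0.0362) and came to -0.12 without DMSO replicate C (edgeR adjusted p = 0.467) and -0.15 with library size alone (edgeR adjusted p = 0.333). *FUCA2* had at most 8 counts in a library and was not tested.

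**Figure D2:**
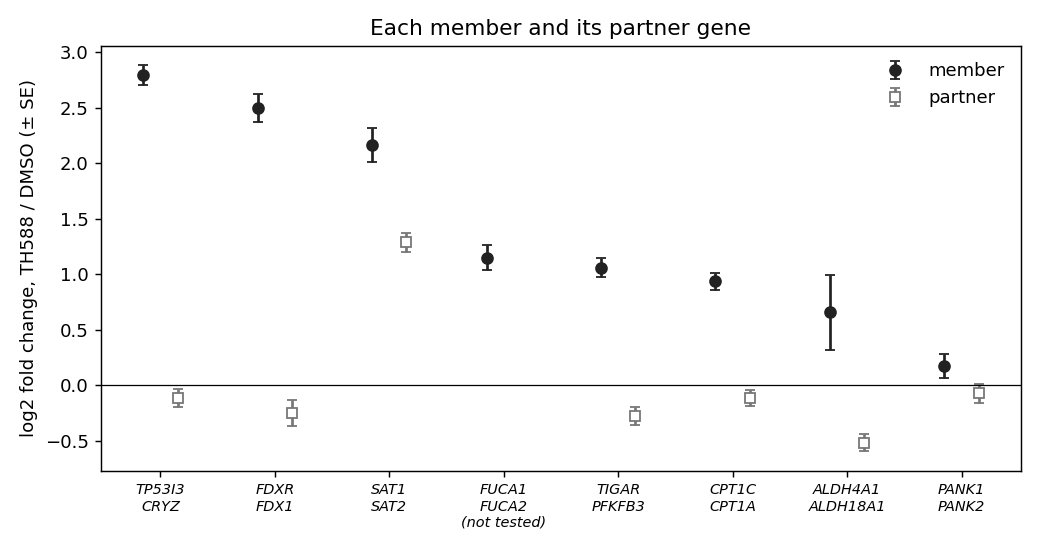
Log2 fold change of TH588 over DMSO for 8 members (filled circles) and its partner (open squares), with bars of 1 standard error from edgeR's fit over 3 libraries a group. The partner *SAT2* lies above 0, the other plotted partners lie below 0, and *FUCA2* could not be tested. *SCO2*, which was not tested, and *GLS2* are not drawn.

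Within a library the ratio of member to partner does not depend on sequencing depth. The log2 ratio of the RPKM of *TP53I3* to that of *CRYZ* was 0.10, -0.02 and -0.05 with DMSO, compared to 2.83, 3.01 and 2.92 with TH588. The genes were thus level with DMSO, and *TP53I3* was far ahead with TH588. For *TIGAR* over *PFKFB3* the mean log2 ratio went from 0.04 ± 0.07 to 1.38 ± 0.15 (SD, n = 3 each). For *FDXR* over *FDX1* it went from 0.56 ± 0.38 to 3.29 ± 0.36 (SD, n = 3 each).

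*CPT1C* stayed below *CPT1A*, the form of liver and many other tissues, in each library, but the mean log2 ratio moved from -1.41 ± 0.04 to -0.35 ± 0.05 (SD, n = 3 each). *SAT1* stayed below *SAT2*, with a mean log2 ratio of -4.33 ± 0.06 with DMSO and -3.45 ± 0.29 with TH588. The ratio of *PANK1* to *PANK2* moved by 0.24 and that of *ALDH4A1* to *ALDH18A1* by 1.22 on the log2 scale. In each of the 7 pairs compared, the TH588 libraries lay above the DMSO libraries. No share over other gene pairs was computed. By themselves, 8 of the 9 members tested already lay above in this way, against 28.7% of all genes tested. The separation of the pairs is thus in part the members' own rise, and it includes the uncalled *PANK1* and *ALDH4A1*. Each pair gave p = 0.1 in an exact two-sided permutation test, the smallest that 3 libraries against 3 allow, and 0.1 after Benjamini-Hochberg adjustment over the 7 pairs, so no pair can pass 0.05 in this design.

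**Figure D3:**
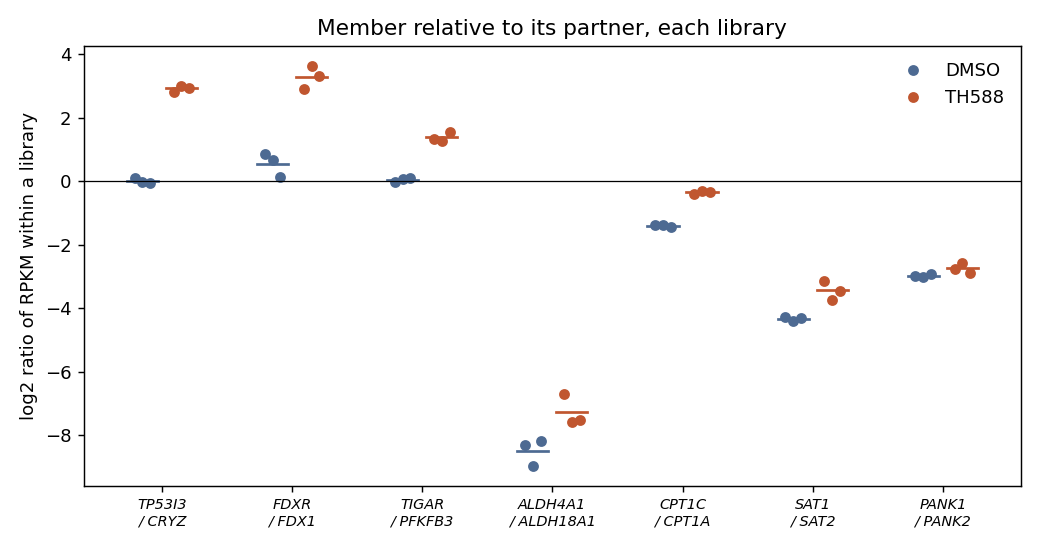
Log2 ratio of the RPKM of each member to that of its partner within a library, with 1 point per library and a line at the group mean. The TH588 points lie above the DMSO points in each of the 7 pairs plotted, by the most for *TP53I3* over *CRYZ* and the least for *PANK1* over *PANK2*.

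The pathways around the members were described with lists from general knowledge, with the members left out of the counts. Like the members, the lists were chosen with earlier results of these data known, so their counts are descriptions only. Together these lists held 170 genes, of which 167 were tested. Of these, 49 were higher and 49 lower, with a median log2 fold change of -0.001, beside 24.2% higher and 25.3% lower among all genes tested. The counts of the single lists below stand beside the same background.

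**Figure D4:**
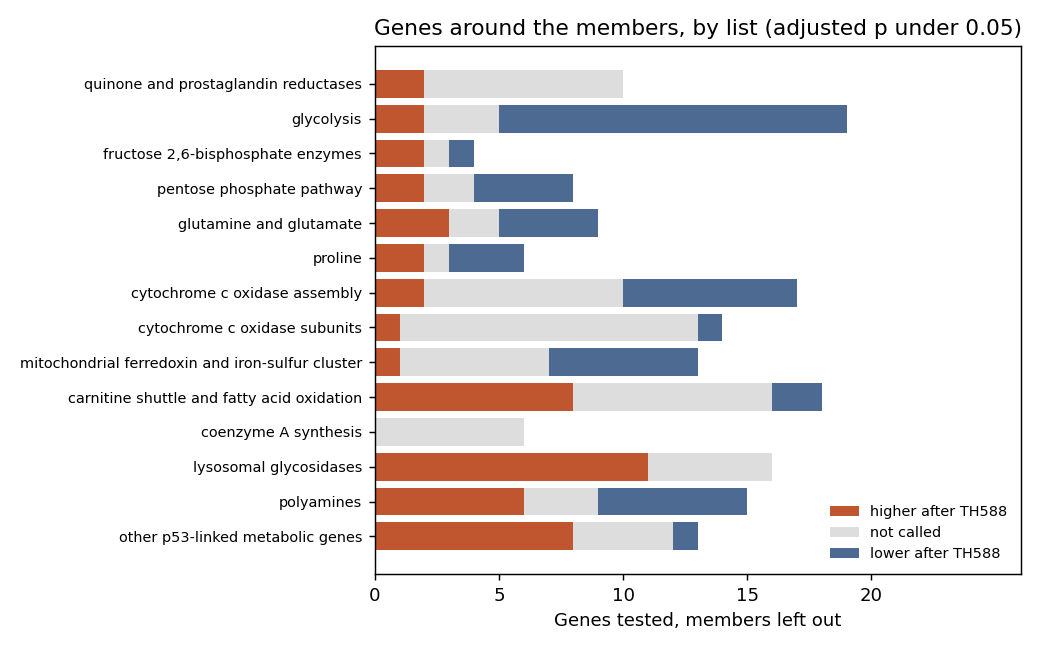
Number of tested genes in each list, members left out, that were higher after TH588, not called, or lower at an adjusted p under 0.05 from edgeR's test. Lysosomal glycosidases and other p53-linked metabolic genes were mostly higher, glycolysis was mostly lower, and coenzyme A synthesis had 0 calls.

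Glycolysis genes around *TIGAR* were mostly lower: 14 of 19 fell and 2 rose, with a median log2 fold change of -0.54. *HK2*, a hexokinase, fell from 366 ± 18.5 to 144 ± 11.4 CPM and *SLC2A1*, the glucose transporter GLUT1, from 78.1 ± 2.26 to 34.9 ± 2.68 CPM (SD, n = 3 each). *ALDOC*, an aldolase, rose from 7.51 ± 0.434 to 19.0 ± 1.99 CPM (SD, n = 3 each). Of the other fructose bisphosphate enzymes, *PFKFB2* rose by 0.64 on the log2 scale. In the pentose phosphate pathway 2 of 8 genes were higher and 4 lower, on a background of 24.2% higher and 25.3% lower. *H6PD* and *PGLS*, which act in its oxidative steps, rose with log2 fold changes of 0.78 and 0.55, and *RPIA* and *RPE* of the non-oxidative part fell with log2 fold changes of -0.57 and -0.56, the last with 23.8% of its exon bases shared with other genes.

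Beside *TP53I3*, 2 of 10 other quinone and prostaglandin reductases were higher and 0 lower, and 0 were lower by edgeR at an unadjusted p under 0.05, by DESeq2 or by limma-voom. *VAT1*, a membrane protein of the same reductase family, rose from 21.6 ± 2.56 to 55.6 ± 3.89 CPM (SD, n = 3 each). Beside *FDXR*, 1 of 13 other ferredoxin and iron-sulfur cluster genes was higher and 6 were lower, and their median log2 fold change was -0.25. The riser was *ISCU*, the scaffold on which the clusters are built, from 28.7 ± 1.77 to 70.9 ± 6.09 CPM (SD, n = 3 each). *BOLA3*, a late maturation factor, fell from 44.5 ± 3.19 to 14.7 ± 1.26 CPM, and *HSPA9*, a mitochondrial chaperone of the HSP70 family, from 2572 ± 138 to 1416 ± 61.1 CPM (SD, n = 3 each).

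Of the cytochrome c oxidase assembly factors around *SCO2*, 2 of 17 were higher and 7 lower. *LRPPRC*, which stabilizes mitochondrial mRNAs, and *COX10*, which makes a heme precursor, fell with log2 fold changes of -0.63 and -0.53. The rise of *COA5* (0.54) fell to 0.29 without TH588 replicate A and lost its call there and without DMSO replicate B or C, and the rise of *COX15* (0.21) lost its call without any one of the libraries except TH588 replicate C. The subunits of the oxidase were largely without a call, with 12 of 14 not passing the threshold, 1 higher and 1 lower. The riser was *COX8A* (log2 fold change 0.39), which shares 34.5% of its exon bases with other genes.

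Around *GLS2*, 3 of 9 genes for glutamine and glutamate were higher and 4 lower. The glutamine transporters *SLC1A5* and *SLC38A1* fell, with log2 fold changes of -1.03 and -0.65, while the transporter *SLC38A2* and the transaminase *GOT1* rose, by 0.45 and 0.37 on the same scale. Overlapping genes share 23.8% of the *SLC1A5* exon bases. In proline metabolism around *ALDH4A1*, 2 of 6 genes were higher and 3 lower, and *OAT*, which links ornithine to proline, fell from 149.0 ± 10.2 to 86.6 ± 8.70 CPM (SD, n = 3 each).

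In the carnitine shuttle and fatty acid oxidation around *CPT1C*, 8 of 18 genes were higher and 2 lower, with a median log2 fold change of 0.23. *ETFDH*, which passes electrons from fatty acid oxidation to ubiquinone, rose from 25.5 ± 1.51 to 44.5 ± 3.38 CPM (SD, n = 3 each). *HADH* and *ECHS1*, both enzymes of the oxidation cycle, fell with log2 fold changes of -0.84 and -0.30, the latter call lost without DMSO replicate A or C or TH588 replicate A or C (adjusted p = 0.0715 to 0.142 from edgeR's test) and with library size alone (-0.19, edgeR adjusted p = 0.274). Of the 6 other genes of coenzyme A synthesis around *PANK1*, 0 were called by edgeR, DESeq2 or limma-voom, and 1 was higher at an unadjusted p under 0.05. *PANK1* itself was likewise not called.

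Lysosomal glycosidases, the enzyme class of *FUCA1*, were higher in 11 of 16 other genes and lower in 0, and the median was 0.52 on the log2 scale. For the lower direction, edgeR at an unadjusted p under 0.05, DESeq2 and limma-voom also gave 0. *GAA*, the acid alpha-glucosidase, rose from 48.8 ± 1.29 to 128 ± 14.8 CPM, and *MAN2B1*, a mannosidase with 21.2% of its exon bases shared with other genes, from 43.6 ± 2.94 to 99.3 ± 5.35 CPM (SD, n = 3 each). In polyamine metabolism around *SAT1*, 6 of 15 other genes were higher and 6 lower. *ODC1*, ornithine decarboxylase, fell from 344 ± 10.1 to 151 ± 13.5 CPM, and *SRM*, spermidine synthase, from 101 ± 7.67 to 38.4 ± 3.97 CPM (SD, n = 3 each). *AMD1* and *SMS*, the other synthesis enzymes of the list, named after their values were seen, fell with log2 fold changes of -1.04 and -0.68. *PAOX*, which oxidizes the products of *SAT1* and was named in the same way, rose by 1.65 on the log2 scale. That is more than *SAT2* (1.29), yet *PAOX* did not meet the rule for naming genes by call, abundance and separation of the groups. These genes were picked from a list with as many genes higher as lower and do not describe it.

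The last list held other metabolic genes linked to p53, of which 8 of 13 were higher and 1 lower, with a median log2 fold change of 1.11. *SESN1* and *SESN2*, the sestrins, which restrain the growth kinase mTOR, rose with log2 fold changes of 2.08 and 1.82. The 1 lower gene, *ME2*, a malic enzyme, fell from 148 ± 9.15 to 101 ± 8.10 CPM (SD, n = 3 each, edgeR adjusted p = 0.000240).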

How the data were processed

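The authors aligned reads to GRCh38 with TopHat and counted them per gene with featureCounts 1.4.6, and deposited raw counts without normalization. The kit (TruSeq v2) does not mark strand. Whether strand was used in counting, and how reads on shared exons were treated, is not given in the sources used here. The authors' own comparison used DESeq2. Symbols were matched by Ensembl identifier for 57754 of 58336 genes, and the spans of all 10 members overlapped GENCODE v44, with 4 identical.

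Counts were compared with edgeR 4.0.16 in R 4.3.3 (TMM, default low-count filter, quasi-likelihood test, no block, Benjamini-Hochberg over all genes tested), with the standard error as the log2 fold change over the square root of F. The procedure was tested on simulated counts. Replicates are described as biological triplicates. CPM uses the TMM library size, and RPKM divides it by the deposited gene length. Libraries of a group differed by more than sampling noise (chi-square per degree of freedom 25.2 to 180). Besides the members, the text names the partners, the p53 axis and, from each list, up to 2 top risers and 2 top fallers that were called, were not rare (mean log2 CPM 2 or more) and had groups that did not overlap. The markers, genes that share exons with a member, *SNORD3A*, *AMD1*, *SMS* and *PAOX* are named outside this rule, except *KRT18*, which met it. *AMD1*, *SMS*, *PAOX*, *EPCAM* and *KRT18* were named after their values were seen. The members and lists were chosen with earlier results of these data known. As alternatives, scaling was by size factors of DESeq2 or by library size alone, the test was that of DESeq2 1.42.0 or limma-voom (limma 3.58.1), and others were different filters, a threshold of 0.01, the 10 most abundant genes removed, each library left out and a replicate block. Counting only members with under 15% shared exon bases was added after seeing the data. Some listed genes, and the pair of *GLS2*, are not reported here and were left out of the lists, pairs and counts.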

Additional observations from a re-analysis of the deposited data

How the results depend on the processing

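The count of members higher stayed at 6 and the count lower at 0 under every alternative run, and no member changed direction. The median over members lay between 1.02 and 1.17. With library size only, the median of all genes tested was 0.126, against 0.019, and 60.4% of all calls were rises, against 48.9%. Among members under 15% shared exon bases, 6 of 7 were higher. The replicate letters did not pair the libraries (correlations of deviations -0.071, -0.083 and 0.001), and the replicate block gave 7195 calls over all genes in place of 7852. *PANK2* was 0.033 with library size only, against -0.07, neither past the threshold, and the cause was not tested. *COX15* and *MDM4* also lost their calls with the block (adjusted p = 0.101 and 0.0733 from edgeR's test). Over all alternatives and single genes, 781 values kept direction and call, 27 lost their call, 1 gained it and 1, that of *PANK2*, changed sign. At the depth of TH588 replicate A, genes such as *GLS2* and *ALDH4A1* rest on few counts.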
